A study of Homo sapiens with 6 samples.

Results

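The cassette exons of 9 cell death genes were examined here, namely BCL2L1, MCL1, BAX and BID of the BCL2 family, the caspases CASP2, CASP8 and CASP9, the death receptor FAS and the caspase-8 regulator CFLAR. A cassette exon is an exon that is either kept between its flanking exons or skipped, and every row of the deposited splicing table that carried one of these gene symbols was taken. This gave 34 of 24725 events, in 8 of the 9 genes: 8 in CFLAR, 7 in CASP8, 6 in BAX, 5 in FAS, and 2 each in MCL1, BID, CASP2 and CASP9. No event was listed for BCL2L1, whose best known isoform pair comes from an alternative splice donor, which is another kind of event than a cassette exon.

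RNA was sequenced from 3 samples of each of 2 groups of MDA231-BrM2a cells, which were derived from the human breast cancer line MDA-MB-231 for their spread to the brain, to ask which exons RBM47, an RNA-binding protein, includes or excludes. Control cells were not clonal and carried the empty vector pRetroX-Tight-Pur, and RBM47 cells were the single clone wt#10, with Flag-tagged wild type RBM47 in that vector under a doxycycline-inducible promoter. All 6 samples received 10 ng/ml doxycycline for 3 days, so the drug itself was shared. An effect of RBM47 and a trait of this clone cannot be told apart. The labels do not say whether the samples of a group came from separate cultures. A p-value from the rates of single samples thus measures only the spread between these samples. Fisher's exact test was run on reads summed per group, so its p-value does not measure that spread.

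In the extrinsic route of apoptosis, a receptor such as FAS recruits procaspase-8, and CFLAR (c-FLIP), a relative of caspase-8 without protease activity, competes for the same complex. In the intrinsic route, BCL2 proteins control the outer mitochondrial membrane: BAX permeabilizes it, BCL2L1 and MCL1 hold BAX back, BID links caspase-8 to BAX, and caspase-9 is activated once the membrane has opened. Most of these genes are known for splice isoforms that differ in activity or oppose each other, among them soluble FAS without its transmembrane exon, the short form of MCL1 without its middle exon, and the short form of caspase-2 that arises when an extra exon is included.

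The inclusion rate of a sample is I/(I + 2S), where I counts reads on either junction that joins the exon to a neighbour and S counts reads on the junction that skips it. RBM47 replicate 2 stood apart: a rate of exactly 0 or 1 was found for 48.8% of all events in that library, and for 37.1 to 38.1% in each of the others. Depth per sample cannot be given, since the read totals are per group, 26498401 in Control and 24116982 in RBM47 cells. VIM, CD44 and KRT8, which MDA-MB-231 cells express, had events with reads in both groups. KRT18, the markers that these cells should lack (EPCAM, ESR1, ESRP1 and CDH1) and RBM47 itself had no event listed, which says nothing about their expression, so induction of the transgene could not be checked here.

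Inclusion of 1 event, in CFLAR, was higher in RBM47 cells when the study's criteria were applied to rates taken from another row, as described below. The criteria asked for 10 or more reads and group means 0.2 or more apart. They also asked for p of at most 0.05 in Fisher's exact test on the reads summed per group. By the averages printed in its own row the event fell short of them, with a difference of 0.192. The count of 1 of 34 events stood beside a background of 346 of 24706 events (1.4%), or 150 (0.607%) when only higher inclusion in RBM47 cells was counted. The paper reports fewer exons in each direction than this background, which rests on re-matched rates and a recomputed test. That background was uneven, since 76 of 23333 rows aligned as deposited met the criteria (0.326%) and 270 of 1373 rows whose rates had to be re-matched did (19.7%), the latter group holding only rows with a Fisher exact p of at most 0.05. The CFLAR event was one of the re-matched rows, which are described with it below. No event passed limma, which compares the rates of single samples: 0 of the 5 events with a mean rate from 0.1 to 0.9 had both an adjusted p under 0.05 and means 0.2 or more apart, against 92 of 5998 events (1.53%) in the whole table. Without adjustment, 2 of these 5 events, both in CFLAR, had p under 0.05 in limma, beside 719 of 5998 (12.0%). In no event were all 3 rates of one group above all 3 of the other, whereas such a gap was seen in 2452 of 24706 events (9.92%).

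**Figure D1:**
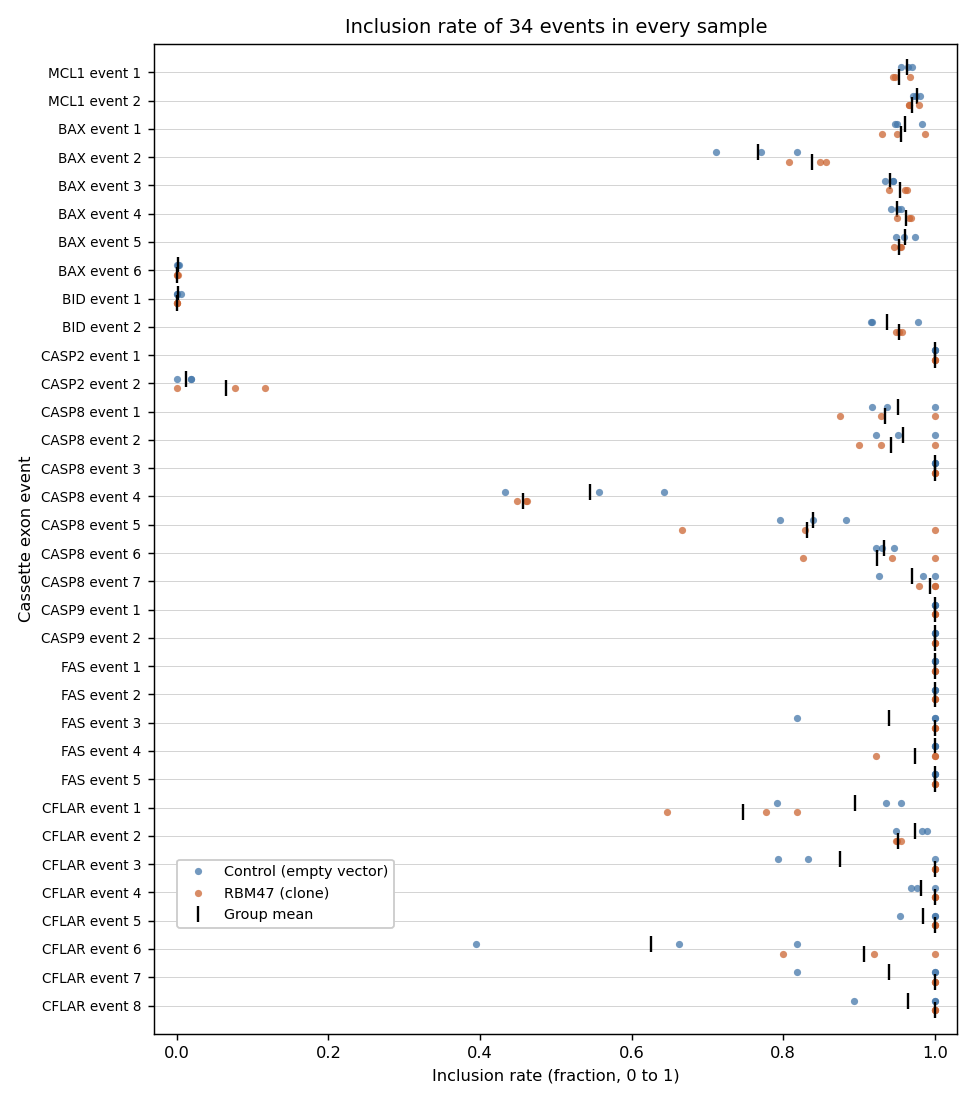
Inclusion rate (fraction, 0 to 1) of each of the 34 events, with 1 circle per sample (blue, Control; orange, RBM47) and a black tick at each group mean; events of a gene are numbered by position. Most circles sit close to 1 or 0, the groups overlap in every event, and the widest gap between means is that of CFLAR event 6, at 0.625 and 0.907.

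Most events in these genes were close to fully included. The median Control rate over the 34 events was 0.959, the rate was 1 in all 6 samples in 7 of them, and the mean Control rate lay between 0.1 and 0.9 in only 6. The median absolute difference between groups was 0.0139, beside 0.0114 over all events, and the median signed difference was 0 in both. Inclusion was nominally higher in RBM47 cells in 13 events, lower in 14 and equal in 7. A difference of at least 0.1 was seen in 3 events, all in CFLAR, beside 2170 of 24706 events (8.78%). Those 3 differences were 0.281, -0.147 and 0.125 by the rates, but 0.251, -0.0162 and 0.00963 by the read totals. A Fisher exact p of at most 0.05 was seen in 3 events, 1 each in CFLAR, CASP2 and BID, beside 3585 of 24725 (14.5%). In 20 of the 34 events some set of whole reads per sample gave both the rates and the read totals. A rate of exactly 0 or 1 fits any number of reads, so this was fixed for the 7 events at 1 in all samples. It was a weak check wherever a sample stood at 0 or 1, and does not show that rates and totals hold the same reads. No such set was found for both MCL1 rows, all 6 BAX rows, 3 CASP8 rows, 2 CFLAR rows and 1 BID row. Their rates and totals do not hold the same reads.

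**Figure D2:**
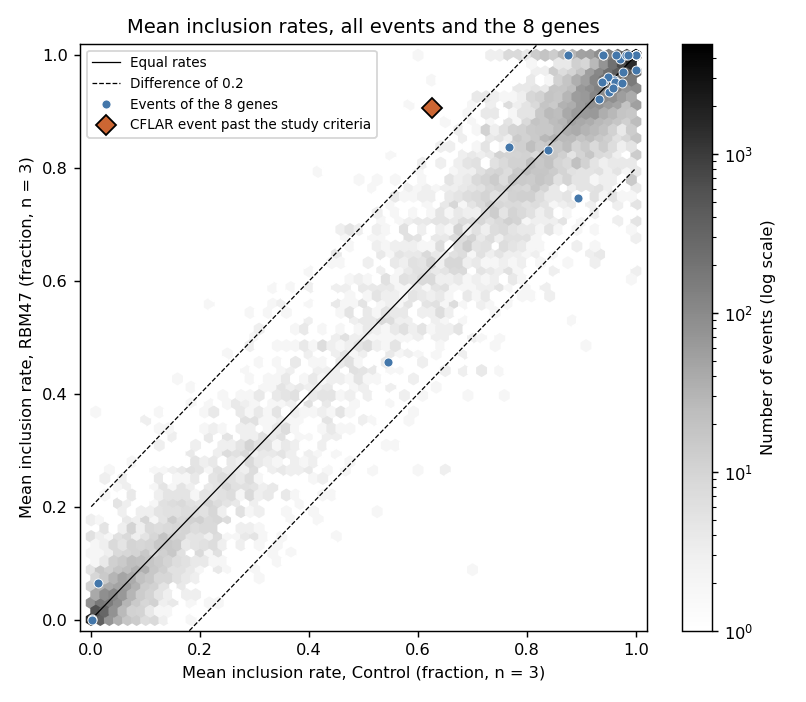
Mean inclusion rate (fraction, n = 3) in Control (x axis) and RBM47 cells (y axis), with all 24706 events as grey hexagons shaded by number on a log scale, the events of the 8 genes as blue circles and the called CFLAR event as an orange diamond. Dashed lines mark a difference of 0.2; 1 of the 34 events lies beyond them.

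CFLAR, which limits caspase-8 activation at death receptors, held the called event, between positions 201713324 and 201722802 of chromosome 2 as the table prints them. The table names no genome build and its positions are not those of GRCh37, so exons were matched to GRCh37 by gene and by the span of the event, and only the GRCh37 positions of matched exons are given as such. The span holds an exon of 55 bases (chr2:202010101-202010155, plus strand) and, next to it, one of 50 bases (chr2:202013726-202013775, plus strand), and a 118-base exon that is annotated in 1 transcript only. The table does not settle which of these exons its including reads belong to. Both short exons are shown because the skipping reads join the exon before them to the exon after them and so leave out both. Capitals mark the exon, between 20 intron bases before it and 6 after it, as in the other sequences here.
CFLAR 55-base exon: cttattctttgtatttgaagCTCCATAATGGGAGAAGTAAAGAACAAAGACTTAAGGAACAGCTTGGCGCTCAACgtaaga
CFLAR 50-base exon: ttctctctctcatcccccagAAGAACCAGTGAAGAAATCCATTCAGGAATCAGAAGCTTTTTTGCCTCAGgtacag
Neither length is a multiple of 3, whereas together they make 105 bases, which is. Of 24 annotated CFLAR transcripts, 9 hold both exons and none holds 1 of the pair alone, and 1 joins the flanking exons directly. Before the 50-base exon 17 of the 20 intron bases shown are C or T, and before the 55-base exon 13 are.

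In Control cells the 3 inclusion rates of this CFLAR event were 0.818, 0.662 and 0.395, and in RBM47 cells they were 1, 0.920 and 0.800. The Control samples were spread over a wide range, and the highest of them lay just above the lowest RBM47 sample, so the groups overlapped. The Control mean was 0.625 ± 0.214 and the RBM47 mean 0.907 ± 0.101 (SD, n = 3 each), a difference of 0.281, with a 95% interval from 0.0297 to 0.533 in limma on the untransformed rates. The exact two-sided permutation test gave p = 0.2, where 0.1 is the smallest that 3 against 3 samples allow, and limma on the transformed rates gave an unadjusted p of 0.0311 and an adjusted p of 0.347. In the summed reads, 30 of 139 junction reads skipped in Control (21.6%, 95% Wilson interval 15.6 to 29.1%) and 4 of 73 in RBM47 cells (5.48%, 2.15 to 13.3%). Fisher's exact test on those totals gave p = 0.00265, and 0.0498 after Benjamini-Hochberg adjustment over all events. Intervals on reads and Fisher's exact test, here and below, cover counting error only and treat the samples of a group as one.

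That call rested on how the rows of the table were put together. It was 1 of 1392 rows of the table whose rates did not average to the group averages printed beside them, and the only one of the 34 rows with this fault. The rates used above were those of the 1 row whose RBM47 rates average to the printed 0.907. Their Control mean of 0.625 differs from the 0.715 printed in the row, whereas the summed reads gave 0.645 in Control and 0.896 in RBM47 cells. Whole reads of 45 including and 5 skipping, 47 and 12, and 17 and 13 give the 3 Control rates and add up to the Control totals of 109 and 30, and no other set of whole reads does. The rates that stood in the row averaged 0.790 and 0.839 and could not be made from the totals, while those of 7 of the 1392 misaligned rows could. The difference was 0.192 by the printed averages and 0.0495 by the rates standing in the row, both short of 0.2, and 0.251 by the summed reads. Without Control replicate 3, the sample with 13 skipping reads of 30, it was 0.167, also short of 0.2, and without RBM47 replicate 2 it was 0.275.

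**Figure D3:**
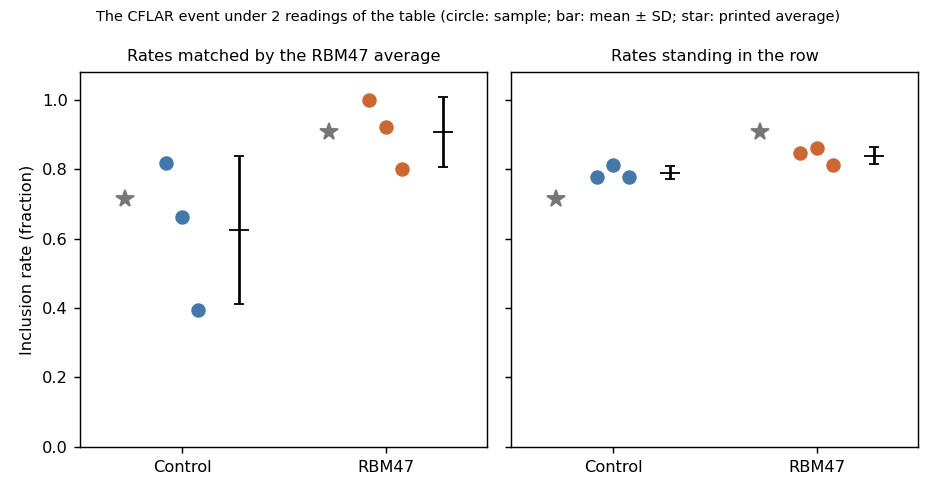
Inclusion rate (fraction) of the CFLAR event in each sample (circles), with the group mean ± SD (bars, n = 3) and the average printed in the row (stars), for the rates matched by the RBM47 average (left) and the rates standing in the row (right). On the left the stars meet the mean in RBM47 cells at 0.907 but not in Control, where the mean is 0.625 and the star 0.715, and on the right they meet neither mean.

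The event just upstream in CFLAR, from 201713324 to 201722019, shares the same first exon and ends at the 50-base exon. Only 2 of 252 junction reads skipped in Control, and 0 of 136 in RBM47 cells, a count that allows a skipping share of up to 2.21%. Thus direct joining of the upstream exon to the 50-base exon was rare in both groups. The share that a count of 0 allows, here and below, is 3 divided by the reads of the group. This is about a one-sided 95% limit, lower than the upper end of a 95% Wilson interval, which is 2.75% here.

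A second CFLAR event, from 201689148 to 201706101, had the largest difference in the other direction. The Control rates were 0.935, 0.792 and 0.956 and the RBM47 rates 0.818, 0.647 and 0.778, so that 2 RBM47 samples lay below every Control sample and the third lay between them. The means were 0.894 ± 0.0894 and 0.748 ± 0.0894 (SD, n = 3 each), a difference of -0.147 with a 95% interval from -0.266 to -0.0271, and limma gave an unadjusted p of 0.0209 and an adjusted p of 0.278. The read totals showed much less: 8 of 1106 junction reads skipped in Control and 9 of 579 in RBM47 cells, which makes rates of 0.986 and 0.969, a difference of -0.0162 (Fisher exact p = 0.125). The rates and the totals of this event do not hold the same reads, since with all 8 Control skipping reads counted the 3 Control rates leave room for at most 153 of the 1098 including reads. The other row over the same span, with 1647 and 946 including reads, had mean rates of 0.974 and 0.951.

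The CFLAR event from 201691717 to 201706101 was listed in 2 rows. In the first, the Control rates were 1, 0.833 and 0.793, and the RBM47 rate was 1 in all 3 samples, a difference of 0.125 between means. The read totals gave rates of 0.990 and 1, a difference of only 0.00963. Only 1 set of whole reads gives the Control rates and totals: 985 including and 0 skipping, 20 and 2, and 23 and 3. The 2 lower Control rates would then rest on few of the reads. Only 5 of 1033 Control reads skipped the exon and 0 of 545 RBM47 reads did, which allows up to 0.550%. In the second row, with more including reads, the means were 0.982 and 1. The last 2 rows, from 201722721 to 201736950, had Control means of 0.939 and 0.964 and RBM47 means of 1. Each had 3 skipping reads in Control and none in RBM47 cells. Only Control replicate 1 was below 1 in these rows, at 0.818 and 0.893. Over the gene, inclusion was nominally higher in RBM47 cells in 6 of 8 rows, but these rows shared junctions and skipping reads and are not independent of each other.

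CASP8, the initiator protease that FAS activates, gave a mixture of isoforms in both groups. A pair of cassette exons lies after the exons for the death effector domains: one of 45 bases (chr2:202137621-202137665, plus strand), which keeps the reading frame, and one of 65 bases (chr2:202139612-202139676, plus strand), which does not. They are shown because the reads of 4 rows are divided among their junctions.
CASP8 45-base exon: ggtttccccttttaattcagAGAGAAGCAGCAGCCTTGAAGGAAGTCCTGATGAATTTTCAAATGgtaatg
CASP8 65-base exon: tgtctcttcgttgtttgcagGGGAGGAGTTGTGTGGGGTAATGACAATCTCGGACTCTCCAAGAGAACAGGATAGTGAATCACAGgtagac
The 45-base exon, between an upstream exon and the 65-base exon, had inclusion rates of 0.433, 0.643 and 0.557 in Control and 0.448, 0.462 and 0.461 in RBM47 cells. All 3 RBM47 samples lay within the Control range. The means were 0.545 ± 0.106 and 0.457 ± 0.00747 (SD, n = 3 each), a difference of -0.0877 with a 95% interval from -0.213 to 0.0380, so a shift of 0.2 downward is not outside the interval. limma gave an adjusted p of 0.643, and Fisher's exact test on 280 including and 115 skipping reads in Control against 119 and 69 in RBM47 cells gave p = 0.0705.

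Because rows with shared flanks count the same junctions, the totals of 3 CASP8 rows could be solved for each junction, and the including total of a further row then agreed to the read in both groups. Reads leaving the upstream exon joined the 45-base exon in 154 of 283 cases in Control (54.4%, 95% Wilson interval 48.6 to 60.1%) and in 68 of 146 in RBM47 cells (46.6%, 38.7 to 54.7%). They joined the 65-base exon directly in 115 cases (40.6%) and 69 cases (47.3%), and passed over both exons in 14 (4.95%) and 9 (6.16%). The intervals of the groups overlapped for each of the 3 destinations. The 45-base exon was joined straight to the exon beyond the 65-base exon by 7 Control reads and 1 RBM47 read, so the 65-base exon was rarely left out once the 45-base exon was in.

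The 45-base exon over the longer span (201845605 to 201849935) had rates of 0.840, 0.882 and 0.796 in Control and of 0.667, 1 and 0.829 in RBM47 cells, where 1 sample lay below the Control range and 1 above it. The means were 0.839 ± 0.0432 and 0.832 ± 0.167 (SD, n = 3 each), a difference of -0.00768 with a 95% interval from -0.210 to 0.195 and an adjusted p of 0.915 in limma. The difference was -0.0587 from the summed reads, -0.0918 without RBM47 replicate 2 and 0.0749 without RBM47 replicate 1, so its direction rested on single samples. The 65-base exon had means of 0.933 and 0.923 over the same span and of 0.970 and 0.993 after the 45-base exon. Further upstream, 2 rows from 201806983 to 201844588 had means of 0.951 and 0.935 and of 0.958 and 0.943, and the row from 201830997 was at 1 in all 6 samples, with 0 of 440 and 0 of 152 reads skipping, which allows up to 0.682% and 1.97%.

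**Figure D4:**
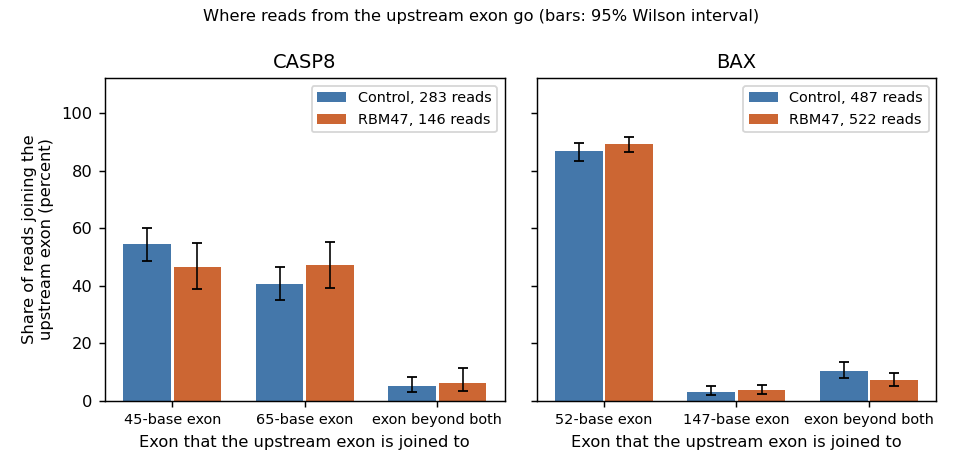
Share (percent) of junction reads leaving the upstream exon that join the first cassette exon, the second, or the exon beyond both, in CASP8 (left) and BAX (right), summed over the 3 samples of each group; error bars are 95% Wilson intervals. In CASP8 the 45- and 65-base exons each take 40.6 to 54.4% of the reads, whereas in BAX 86.7 and 89.3% go to the 52-base exon.

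BAX, the pore-forming member, was covered by 1070 to 4930 reads per row over both groups. Its cassette exons of 52 bases (chr19:49458805-49458856, plus strand) and 147 bases (chr19:49458944-49459090, plus strand) lie side by side, and the longer one, which carries the BH3 motif, keeps the reading frame. They are shown because the event with the largest BAX difference leaves both out.
BAX 52-base exon: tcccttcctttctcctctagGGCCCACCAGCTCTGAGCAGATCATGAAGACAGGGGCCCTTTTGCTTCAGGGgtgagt
BAX 147-base exon: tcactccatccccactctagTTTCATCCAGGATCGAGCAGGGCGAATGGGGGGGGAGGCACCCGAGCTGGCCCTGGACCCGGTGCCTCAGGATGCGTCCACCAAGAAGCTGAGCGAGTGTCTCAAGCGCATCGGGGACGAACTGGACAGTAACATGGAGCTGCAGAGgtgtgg
In the event that sets the 52-base exon against skipping of both (54149928 to 54151401), the Control rates were 0.711, 0.818 and 0.771 and the RBM47 rates 0.857, 0.808 and 0.849. RBM47 samples 1 and 3 lay above every Control sample, and replicate 2 fell just below the highest of them. The means were 0.767 ± 0.0538 and 0.838 ± 0.0263 (SD, n = 3 each), a difference of 0.0713 with a 95% interval from -0.0122 to 0.155, which holds 0 and leaves out a rise of 0.2. limma gave an adjusted p of 0.494, and Fisher's exact test on 464 and 50 reads against 519 and 37 gave p = 0.0734.

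The junction totals of BAX closed as those of CASP8 did. Of the reads leaving the upstream exon, 422 of 487 in Control (86.7%, 95% Wilson interval 83.3 to 89.4%) and 466 of 522 in RBM47 cells (89.3%, 86.3 to 91.6%) joined the 52-base exon. The share that passed over both exons was 10.3% in Control (7.87 to 13.3%) and 7.09% in RBM47 cells (5.19 to 9.62%), and the share that joined the 147-base exon directly was 3.08 and 3.64%. The 147-base exon itself had means of 0.942 ± 0.00611 and 0.954 ± 0.0128 over the long span, and 0.961 and 0.952 after the 52-base exon. A row with 2257 and 2472 including reads, whose exon was not identified, had means of 0.950 and 0.962, and the 52-base exon ahead of the 147-base exon had means of 0.960 and 0.956. An exon of 98 bases further downstream (chr19:49463496-49463593) was rarely included, with no rate above 0.00319 in any sample. In the totals, 21 of 1362 Control reads and 36 of 1536 RBM47 reads included it. The difference was -0.000778 by the rates and 0.00409 by the totals, so its direction was not settled.

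CASP2, a caspase whose short isoform is known to act against cell death, had an exon that was included at a low level. The 61-base exon (chr7:142997473-142997533, plus strand), which shifts the reading frame, is shown because the isoforms of the gene turn on it.
CASP2 61-base exon: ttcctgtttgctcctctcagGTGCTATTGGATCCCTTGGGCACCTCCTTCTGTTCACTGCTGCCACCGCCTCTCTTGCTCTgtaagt
The Control rates were 0.0182, 0.0182 and 0, and the RBM47 rates were 0.116, 0 and 0.0769. RBM47 samples 1 and 3 were the highest, while replicate 2 was at 0 as 1 Control sample was. If the rates and totals hold the same reads, whole reads fit in only 1 way. These are 1 including and 27 skipping, 1 and 27, and 0 and 17 in Control, and 5 and 19, 0 and 5, and 2 and 12 in RBM47 cells. The 0 of RBM47 replicate 2 would then stand on 5 junction reads. A rate of 0 fits any number of skipping reads, so that 5 is only what the other samples leave of the total. The means were 0.0121 ± 0.0105 and 0.0644 ± 0.0591 (SD, n = 3 each), the exact permutation test gave p = 0.4, and Fisher's exact test on 2 of 73 against 7 of 43 reads gave p = 0.0126, or 0.146 after adjustment over all events. The other CASP2 row, an exon of 82 bases, was at 1 in all samples, with 0 of 145 and 0 of 82 reads skipping, which allows up to 2.07% and 3.66%.

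FAS, the receptor itself, was covered by 51 to 129 junction reads per event over both groups. Its 63-base exon (chr10:90770510-90770572, plus strand), which encodes the transmembrane segment and keeps the reading frame, is shown because skipping it gives the soluble receptor.
FAS 63-base exon: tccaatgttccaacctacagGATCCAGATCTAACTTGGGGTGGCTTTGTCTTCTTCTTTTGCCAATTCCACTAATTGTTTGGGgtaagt
The Control rates of this exon were 0.818, 1 and 1, and all 3 RBM47 rates were 1. A single skipping read in Control replicate 1 set the lower value: 1 of 67 Control reads skipped (1.49%, 95% Wilson interval 0.264 to 7.98%), and 0 of 54 RBM47 reads did, which allows up to 5.56%. Skipping of the transmembrane exon was therefore close to the limit of detection in both groups. The next event, an exon of 83 bases, had 0 of 68 and 1 of 60 reads skipping. The remaining 3 FAS events were at 1 in all samples, with limits of 3.85 to 14.3% on the share of junction reads that skip.

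MCL1, which holds BAX and its relatives in check, had 2 rows over the same span (148816445 to 148818333 of chromosome 1), which was not matched to GRCh37 exons. Of 5727 reads in Control, 38 skipped (0.664%, 95% Wilson interval 0.484 to 0.909%), and of 3484 in RBM47 cells, 25 did (0.718%, 0.487 to 1.06%). In the second row, with the same skipping reads among fewer including reads, the shares were 0.976% (0.712 to 1.34%) and 1.15% (0.778 to 1.69%). The mean rates of the first row were 0.976 ± 0.00476 and 0.970 ± 0.00809 (SD, n = 3 each), below the 0.987 and 0.986 of its totals, and those of the second row were 0.963 and 0.953, below 0.981 and 0.977. Fisher's exact test gave p = 0.795 and 0.513.

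BID, the link from caspase-8 to the mitochondrion, had an exon included at 0.937 ± 0.0352 in Control and 0.953 ± 0.00390 in RBM47 cells (SD, n = 3 each), with 10 of 294 and 7 of 283 reads skipping. Its second row, an exon of 95 bases (chr22:18222848-18222942), was nearly always left out. Here 5 of 238 reads included it in Control and 0 of 285 in RBM47 cells, and Fisher's exact test gave p = 0.0191, or 0.191 after adjustment over all events. The rates of 5 of the 6 samples were 0, and that of Control replicate 3 was 0.00599. These rates cannot hold all 5 including reads that the test used, and the difference was -0.00200 by the rates and -0.0106 by the totals.

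CASP9, the initiator caspase of the intrinsic route, was at 1 in all 6 samples in both of its rows, exons of 180 and 90 bases. None of 177 Control and 178 RBM47 reads skipped the first, and none of 78 and 76 the second, which allows up to 1.69 and 1.69% and up to 3.85 and 3.95%. The short form of caspase-9 leaves out a run of several exons at once, which these single-exon rows do not measure.

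The number of junction reads itself differed among the genes. Summed over a gene's rows, RBM47 cells had 0.397 times the Control reads in CASP8 (1111 against 2795), 0.554 times in CFLAR, 0.573 in CASP2, 0.589 in MCL1, 0.763 in FAS, 0.996 in CASP9, 1.07 in BID and 1.09 in BAX. Over all events the ratio was 0.910, and over the 7076 genes with at least 100 Control reads the middle 90% of ratios ran from 0.393 to 1.43. CASP8 was thus near the low end, with a lower ratio in 5.24% of those genes, and CFLAR, CASP2 and MCL1 had a lower ratio in 15.2 to 18.2%. The ratio of single CASP8 rows ran from 0.315 to 0.494. These sums pool the 3 samples of a group, count a junction in each row that uses it and allow no test, and the table holds no reads outside cassette events, so they are a description of junction coverage. Fewer reads from a gene also widen the error of its rates in RBM47 cells.

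**Figure D5:**
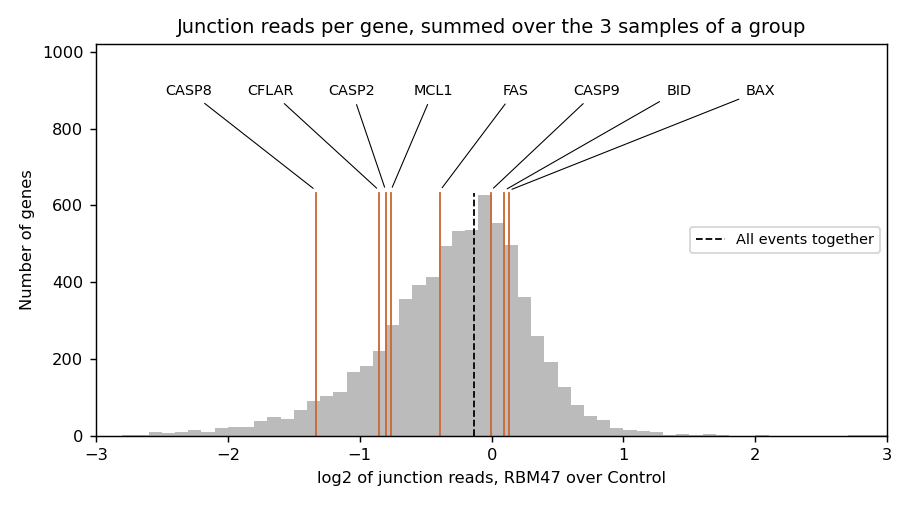
Number of genes (y axis) by the log2 ratio of junction reads in RBM47 over Control cells (x axis), for 7076 genes with at least 100 Control reads; orange lines mark the 8 genes and the dashed line the ratio of all events together, 0.910. CASP8 lies farthest left of the 8, at a ratio of 0.397, and BAX farthest right, at 1.09.

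A list of 60 other apoptosis genes, among them further BCL2 proteins, effector caspases, inhibitor of apoptosis proteins and death receptors, had 107 events in 36 genes. None of the 107 met the study's criteria, beside 1.4% of all events. Of the 23 tested with limma, 0 were called and 0 had an unadjusted p under 0.05 (12.0% of all events tested). A Fisher exact p of at most 0.05 was found for 16 of the 107, near the 14.5% of all events, and groups that did not overlap for 10, near the 9.92% of all events. Their median absolute difference was 0.00740.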

How the data were processed

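The table holds, for each cassette exon event, the inclusion rate of each of 6 RNA-seq libraries (poly(A)-selected) as a fraction, with group averages, which the authors deposited, and read totals per group. The study's methods name STAR and hg19 for its cell-line RNA-seq, and the submitters' processing notes name TopHat. Columns with the authors' own differences and p-values were not used.

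Rates were checked against the averages printed in each row (tolerance 3e-09). Of 24725 rows, 23333 held. Of the other 1392, 1122 took the rates of the row matching both averages and 251 those of the row matching the RBM47 average alone, and 19 were left without rates. Fisher's exact test (two-sided, scipy 1.17.1) was run on the totals. limma 3.58.1 (R 4.3.3) used rates transformed by the arcsine of the square root and let the variance follow log2 reads, for events with a mean rate from 0.1 to 0.9. It was tested on simulated data. The totals are per group, so no count test across samples was run.

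Exons come from GENCODE v44 on GRCh37, and sequences from the GRCh37 genome. All events of the 9 genes are named. Other apoptosis genes are named only if called. The genes, lists and limma form were chosen with earlier results of these data known.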

Additional observations from a re-analysis of the deposited data

How the results depend on the processing

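The single CFLAR call remained 1 of 34 with Benjamini-Hochberg adjustment of Fisher's p, a difference of at least 0.1, no read minimum, at least 20 reads in each group, and rates from summed reads with or without halving the including reads. It became 0 with a difference of at least 0.3, with only rows aligned as deposited, with the rates as they stand in the row, and with the difference of the averages printed in the row, an alternative chosen after seeing the data. Leaving out 1 sample at a time gave 0 to 1 calls, and the 0 came without Control replicate 3. Fisher's p was kept from all samples there, since totals are per group. limma called 0 of the 34 under every alternative run, including the replicate block, and the adjusted p of the 5 tested events was at least 0.0688, reached by the CFLAR event from 201689148 with the replicate block. Replicate numbers showed no sign of pairing the samples: deviations of same-numbered samples had r of -0.0222, -0.00560 and 0.0142 over 5998 events. Such a check cannot exclude that same-numbered samples shared a culture or batch. Over the whole table limma called 92 events, 69 with the block, 56 with no trend, 46 with all mean rates, and 49 to 69 with 1 sample left out (49 without Control replicate 3, 60 without Control replicate 1 and 61 without RBM47 replicate 1). Of 307 alternative values of single differences, 9 moved by more than 1 SD, and none of a called event changed sign. In the other apoptosis genes, a difference of at least 0.1 gave 1 call in place of 0, BIRC5 from 73722355 to 73730667 (0.654 to 0.784), named after its values were seen. Leaving out 1 sample at a time gave 0 calls there. With 3 samples a group, the exact permutation test cannot go below 0.1.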
